A study of Mus musculus with 27 samples.

Results

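Matrix metalloproteinases (MMPs) are zinc-dependent enzymes that cut proteins of the extracellular matrix. The 8 MMP genes described here, Mmp2, Mmp3, Mmp9, Mmp11, Mmp14, Mmp15, Mmp19, and Mmp23, were found by symbol in both tables of read counts and are 8 of the 22855 genes that each table lists. RNA-Seq had been performed on PDGFRα-expressing cardiac fibroblasts and on whole hearts of C57Bl/6 mice at 5 ages. Fibroblasts comprised 3 samples at postnatal day 1, 3 at 4 weeks, and 2 at each of the 3 later ages (14 weeks, 1 and 1.5 years), and whole hearts comprised 3 samples at every age. The animals were untreated as far as the labels tell, and no group carries an allele or an agent that another lacks. Fibroblasts were sorted by flow cytometry on PDGFRα from ventricles digested with an enzyme mixture, whereas whole heart RNA came from tissue. The methods describe the samples of an age as coming from different animals or hearts, and the fibroblasts as sorted from hearts that were sequenced as well. The labels tie no sample to an animal and do not say whether a sample of either tissue is a pool. The 2 tissues may therefore share animals that cannot be matched here. Below, a whole heart sample is called a heart. At the 3 later ages, fewer fibroblast samples are analyzed here than the methods state. The design text of the series names myocardial infarction, which neither the sample labels nor the methods for these libraries mention.

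As background, MMPs are made as inactive precursors, which other proteases cut to release the active enzyme, and the tissue inhibitors of metalloproteinases (TIMPs) bind and block the active form. The gelatinases Mmp2 and Mmp9 degrade denatured collagen and basement membrane collagen. Mmp14 and Mmp15 are membrane-type enzymes anchored in the cell surface, and the Mmp14 protein both cuts fibrillar collagen and activates the Mmp2 precursor. Mmp3 and Mmp11 are known as stromelysins, of which the Mmp3 product has a broad range of substrates and can activate other MMP precursors. Mmp19 and Mmp23 stand outside these classes. In the heart, fibroblasts are a main source of Mmp2, neutrophils of Mmp9, and MMP activity takes part in matrix turnover during growth and after injury.

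The promoters of 3 members are shown because these genes gave the main contrasts in the data. Mmp3 was almost undetected at birth and rose in both tissues, Mmp14 changed differently in fibroblasts and whole hearts late in life, and Mmp15 was higher in whole hearts than in fibroblasts. Each sequence gives the 250 bases before a start listed by RefSeq on GRCm38.p6, 5′ to 3′. There 5 of the 8 members had an entry (Mmp2, Mmp9, and Mmp19 had none). These starts can differ from the gene positions given below, which are those of GENCODE M21. The end of the Mmp15 window lies inside the gene as placed there, which begins at 95352268. All 3 lie on the plus strand, Mmp3 at chr9:7445572-7445821, Mmp14 at chr14:54431348-54431597, and Mmp15 at chr8:95352046-95352295. Capitals mark an AP-1 motif (TGACTCA) and a TATA motif (TATAAA) in Mmp3 and GC boxes (GGGCGG) in the other two, each searched on both strands.
Mmp3: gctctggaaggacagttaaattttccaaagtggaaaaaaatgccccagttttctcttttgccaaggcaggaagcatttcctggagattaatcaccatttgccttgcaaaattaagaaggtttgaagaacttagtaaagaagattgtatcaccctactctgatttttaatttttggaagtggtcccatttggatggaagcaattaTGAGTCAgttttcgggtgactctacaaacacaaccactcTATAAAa
Mmp14: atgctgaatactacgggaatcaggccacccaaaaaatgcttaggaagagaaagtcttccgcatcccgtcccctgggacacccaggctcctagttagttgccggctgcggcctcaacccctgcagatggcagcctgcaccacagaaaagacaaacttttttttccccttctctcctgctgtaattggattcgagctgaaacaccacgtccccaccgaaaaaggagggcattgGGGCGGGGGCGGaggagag
Mmp15: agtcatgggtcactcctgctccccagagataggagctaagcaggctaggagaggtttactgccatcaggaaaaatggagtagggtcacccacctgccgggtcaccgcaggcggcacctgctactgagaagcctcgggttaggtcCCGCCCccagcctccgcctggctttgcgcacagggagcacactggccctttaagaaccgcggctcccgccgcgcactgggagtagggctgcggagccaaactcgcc

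The AP-1 letters of Mmp3, which lie on the opposite strand, begin 46 bases and its TATA letters 7 bases before the start, and the window holds no GC box. Among 32851 RefSeq promoter windows of the same length, 4.46% held the AP-1 motif, 12.4% the TATA motif, and 32.7% a GC box. Mmp14 has 2 GC boxes that adjoin without overlap and begin 19 and 13 bases before the start, and Mmp15 has 1 on the opposite strand at 106 bases. Neither of these windows holds the AP-1 or the TATA letters, and the GC content was 37.6% for Mmp3, 55.2% for Mmp14, and 63.6% for Mmp15. The window of Mmp11 holds 2 GC boxes, and both windows listed for Mmp23 hold none of the 3 motifs. These matches describe letters only and say nothing of the factors that bind there.

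Total counts per sample were between 54615898 and 76758831 in fibroblasts and between 46091271 and 67984404 in whole hearts, and all 8 members passed the filter on low counts in both tissues. Pdgfra, the gene behind the sort, was between 784 and 1367 CPM (read counts scaled to a common library size) in fibroblasts and between 28.6 and 62.0 in whole hearts. The summed level of 8 cardiomyocyte markers in fibroblasts was 640.0 to 707 CPM at postnatal day 1 and 14.3 to 195 later. Xist, which is transcribed from the inactive X chromosome, was at most 0.570 CPM in every sample of 14 weeks and 1 year, and the Y-linked gene Ddx3y was at most 0.397 CPM in every sample of 1.5 years. At postnatal day 1 and 4 weeks, every sample of both tissues had at least 6.48 CPM of Xist and 1.64 of Ddx3y. In the fibroblast samples of these ages the lowest values were 137 and 24.8 CPM. Each of these samples thus held reads of both genes, and whether any holds RNA of more than 1 animal was not tested. The labels give no sex, and in the comparisons with 1.5 years and at the step from 4 to 14 weeks sex and age cannot be told apart, whereas both genes stayed on the same side of these limits from 14 weeks to 1 year.

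Levels were first compared between genes per length, as CPM per kilobase of exon. In fibroblasts, Mmp2 had the highest level, with means of 462 to 842 at the 5 ages, above those of Mmp14 (48.0 to 155) at every age. Mmp3 ranged from 0.00952 to 98.1 and Mmp23 from 31.3 to 61.7, so that these genes changed places with age, followed by Mmp19 (10.5 to 22.7), Mmp11 (7.96 to 19.1), Mmp15 (3.86 to 7.12), and Mmp9 (0 to 1.18). The ranges of Mmp19 and Mmp11 overlapped, whereas those of Mmp11 and Mmp15 did not. Mmp2 made up 72.2% of the summed level of the 8 genes in fibroblasts, and Mmp14 12.7%.

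**Figure D1:**
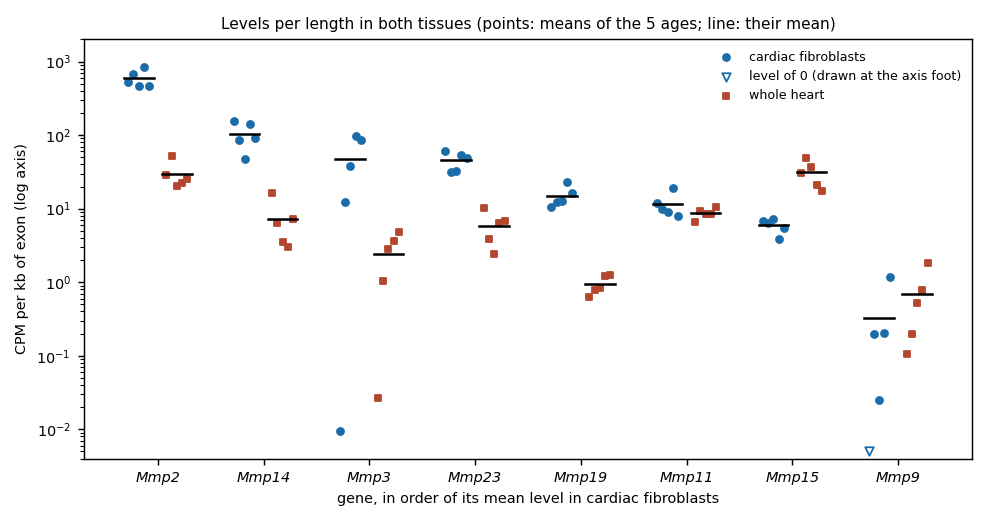
Levels of the 8 MMP genes per kilobase of exon, in CPM per kb on a log axis, in cardiac fibroblasts (circles) and whole hearts (squares). Each point is the mean of 1 age, from postnatal day 1 at the left to 1.5 years at the right, each line is the mean of the 5 ages, and the open triangle at the axis foot stands for the level of 0 of Mmp9 in neonatal fibroblasts. Mmp2 leads in fibroblasts with 597, whereas Mmp15 (31.1) and Mmp2 (30.0) lead together in whole hearts.

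In whole hearts the order was different. Mmp15 had a mean of 31.1 CPM per kilobase over the ages and Mmp2 one of 30.0, and their ranges over the ages, 17.5 to 49.1 and 20.5 to 52.6, overlapped. Below them came Mmp11 (8.65), Mmp14 (7.28), Mmp23 (5.89), and Mmp3 (2.45), whose neighbors in this order again overlapped over the ages. The lowest were Mmp19 (0.949) and Mmp9 (0.684). In whole tissue, a lower level can come from fewer cells of a type or from less RNA per cell, and these cannot be told apart.

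To determine how the MMP genes changed with age, each tissue was tested with edgeR's quasi-likelihood F test, and a gene was called when its p adjusted over all genes was under 0.05. In cardiac fibroblasts, 6 of the 8 members differed among the 5 ages, where 19.9% of all 18759 genes tested did. Mmp9 (adjusted p = 0.0752) and Mmp15 (adjusted p = 0.565) did not pass. From postnatal day 1 to 4 weeks, Mmp3 and Mmp9 rose and Mmp14 and Mmp23 fell, so 4 of 8 were called against 15.5% of all genes. The median log2 change of the 8 was 0.10, and that of all genes 0.00. From 4 to 14 weeks, Mmp3 rose and no other member passed (1 of 8, 3.87% of all genes).

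From 14 weeks to 1 year, Mmp14 and Mmp19 rose in fibroblasts, 2 of 8 members against 1.78% of all genes. The median change of the 8 was 0.91, beside -0.01 for all genes, and Mmp15 alone had a value below 0. This count depended on the fit, since DESeq2 called 5 members (6.49% of all genes it tested), a fit of the 2 ages alone 7 (12.2%), and scaling by library size only 1 (1.68%). From 1 year to 1.5 years no member passed in edgeR (0.24% of all genes), while 4 had an unadjusted p under 0.05 and DESeq2 called 2 (1.93% of all genes), Mmp2 and Mmp11, both with lower values at 1.5 years. Over the whole span between postnatal day 1 and 1.5 years, Mmp3, Mmp9, and Mmp19 rose (3 of 8, 16.3% of all genes), and the median change of the 8 was -0.27.

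**Figure D2:**
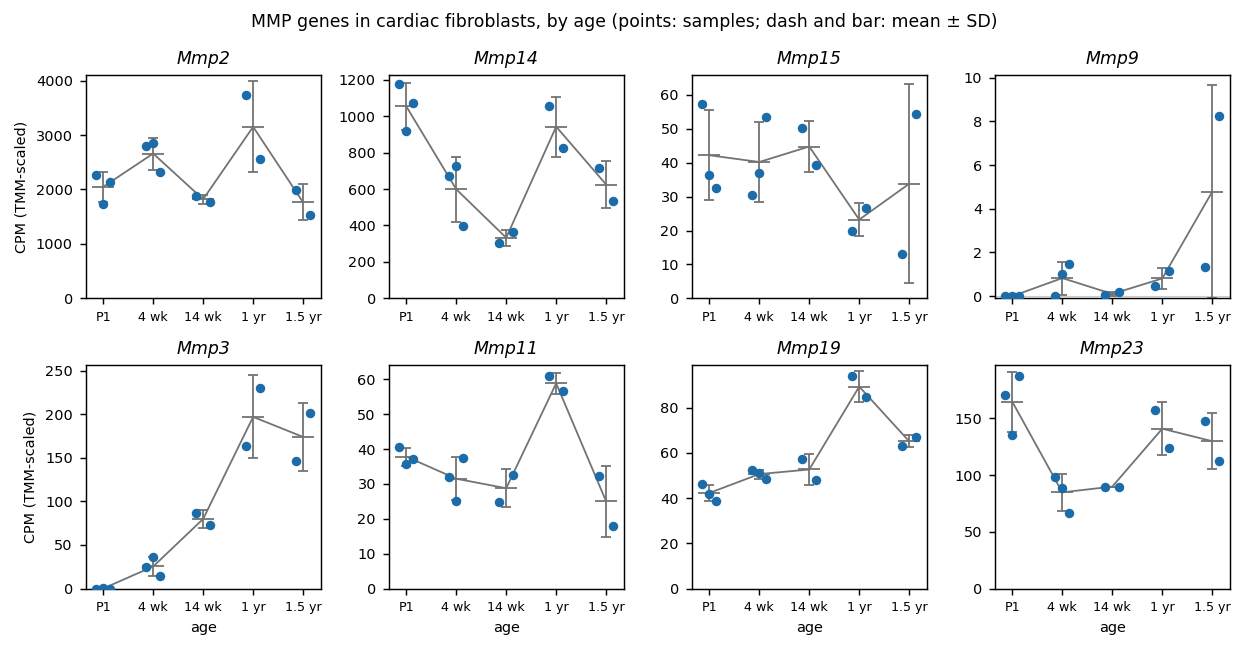
Levels of the 8 MMP genes in cardiac fibroblasts in CPM (y axis, a separate linear scale for each gene) at the 5 ages (x axis). Points are samples, and the dashes and bars are the mean and SD of 2 or 3 samples, joined by lines. Mmp3 climbs from at most 0.0585 CPM at postnatal day 1 to between 146 and 230.5 at the last 2 ages, and Mmp14 is lowest at 14 weeks.

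In whole hearts, 5 of the 8 members differed among the ages, where 34.3% of 17995 genes did. Mmp9, Mmp11, and Mmp19 did not pass. Mmp2, Mmp3, and Mmp15 rose and Mmp14 and Mmp23 fell from postnatal day 1 to 4 weeks (5 of 8, 18.2% of all genes), with a median change of 0.61 for the 8 and -0.09 for all genes. From 4 to 14 weeks Mmp2 and Mmp14 fell (2 of 8, 1.61%), from 14 weeks to 1 year Mmp23 rose (1 of 8, 0.972%), and from 1 year to 1.5 years Mmp14 rose (1 of 8, 2.66%). Between postnatal day 1 and 1.5 years, Mmp3 and Mmp9 rose and Mmp14 and Mmp15 fell, 4 of 8 against 31.8% of all genes. The whole heart values depend on how libraries are scaled, and genes of the mitochondrial genome took between 10.8% and 34.5% of the counts. With library size only, the median of all genes shifted by -0.51 from postnatal day 1 to 4 weeks and by -0.60 to 1.5 years. The rises of Mmp2 and Mmp15 at 4 weeks then no longer passed. Between postnatal day 1 and 1.5 years that scaling called 6 of the 8 members, where 40.7% of all genes changed.

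**Figure D3:**
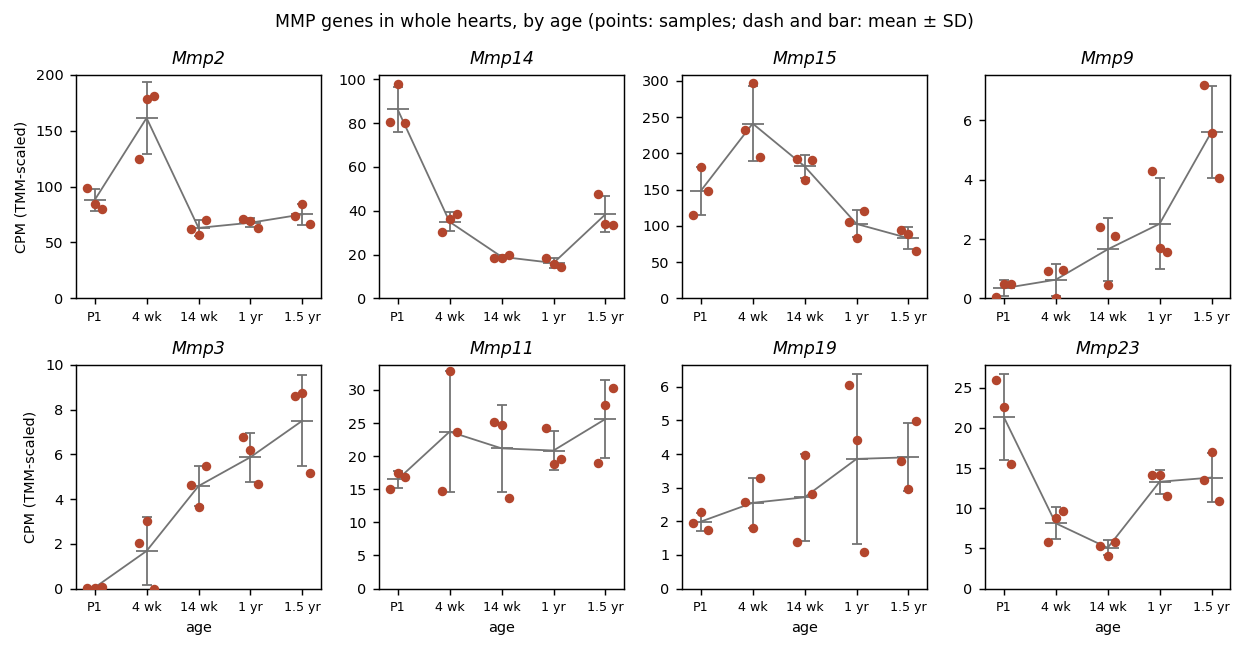
Levels of the 8 MMP genes in whole hearts in CPM (y axis, a separate linear scale for each gene) at the 5 ages (x axis). Points are samples, and the dashes and bars are the mean and SD of 3 samples, joined by lines. Mmp14 drops from 80.1 CPM or more at postnatal day 1 to 19.8 or less at 14 weeks and 1 year and stands at 33.5 or more at 1.5 years.

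Among the gelatinases, Mmp2 (chr8:92827291-92853420, plus strand, 14 exon blocks) was the MMP gene with the most reads in fibroblasts. It was at 2260.2, 1739.5 and 2146 CPM in the 3 samples of postnatal day 1, 2802, 2855 and 2322 at 4 weeks, 1877 and 1763 at 14 weeks, 3739.9 and 2563 at 1 year, and 1996 and 1530.3 at 1.5 years. The samples of 4 weeks and 1 year were high and those of 14 weeks and 1.5 years low, with no overlap between these 2 sets. Mmp2 differed among the ages (adjusted p = 0.0240), but no single step passed, the nearest being the step from 14 weeks to 1 year at 0.79 (SE 0.21, adjusted p = 0.0829). The call over the ages was lost without 1 of 3 libraries, replicate 6 of 14 weeks (adjusted p = 0.0545), replicate 4 of 1 year (0.0730), or replicate 1 of 4 weeks (0.0508).

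In whole hearts, Mmp2 was highest at 4 weeks. Its levels were 99.0, 84.5 and 80.4 CPM at postnatal day 1, 125, 179 and 181 at 4 weeks, 61.9, 56.7 and 70.5 at 14 weeks, 70.6, 69.5 and 62.9 at 1 year, and 74.1, 84.8 and 66.5 at 1.5 years. Every sample of 4 weeks lay above every sample of the other ages. The rise from postnatal day 1 was 0.88 (SE 0.16, adjusted p = 0.00108) on the log2 scale, and the fall to 14 weeks -1.36 (SE 0.17, adjusted p = 3.71e-04), a 2.56-fold drop. With library size scaling the rise was 0.38 (adjusted p = 0.150). Markers of several cell types moved with this rise. The summed level of 8 fibroblast markers went from 1057 to 1230.3 CPM in neonatal hearts to 2129.6 to 2959.5 at 4 weeks. Of the 8, 5 were higher and 2 lower, where 18.2% of all genes changed, with a median log2 change of 0.98 beside -0.09 for all genes. Most of the sum at 4 weeks was Gsn, whose mean went from 281 to 1713 CPM, while that of Col1a1 went from 561 to 286. The summed level of 9 endothelial markers was highest at 4 weeks, 1186 to 1409 CPM against 621 to 953 at the other ages. Of the 9, 4 were higher than at postnatal day 1 (median 0.55), beside the same 18.2% of all genes. At postnatal day 1 and 4 weeks, macrophage markers summed to 75.4 to 93.9 and 380 to 501 CPM. Cardiomyocyte markers summed to 32301 to 39616 and 65462 to 79839. The sums overlapped for smooth muscle and pericyte markers (831 to 1249 and 1102 to 1506) and for neutrophil markers (5.88 to 11.0 and 3.15 to 8.27). Epicardial and mesothelial markers went down (62.9 to 107 and 32.4 to 58.1). The part of any of these cells in the result was not tested.

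Mmp9 (chr2:164940780-164955850, plus strand, 15 exon blocks), the gelatinase of neutrophils and other leukocytes, was low in both tissues. No read was counted in any fibroblast sample of postnatal day 1, where 3 counts per library would correspond to a level of about 0.0416 CPM. It was at 0, 1.01 and 1.48 CPM at 4 weeks, 0.0346 and 0.168 at 14 weeks, 0.458 and 1.16 at 1 year, and 1.33 and 8.23 at 1.5 years, so that 1 sample of 4 weeks was at 0 as well. Against a floor of 3 counts per library at postnatal day 1, it was at least 19.9-fold higher at 4 weeks and at least 115-fold higher at 1.5 years, limits that cover counting error only. Single libraries moved these limits, the first to 12.1-fold without replicate 3 of 4 weeks, and the second to 198-fold without replicate 4 of 1.5 years and to 32.1-fold without replicate 5. Both differences were called (adjusted p = 0.0409 and 0.0188). The first was lost when any of 10 single libraries was left out (adjusted p from 0.0516 to 0.0847), and the second without replicate 5 of 1.5 years (adjusted p = 0.110).

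That same fibroblast sample stood out for neutrophil genes and, among the samples after birth, for mitochondrial reads. Genes of the mitochondrial genome took 7.83% of its counts and 2.20% in replicate 4 of 1.5 years. Their share was 1.74% to 3.84% in fibroblasts from 4 weeks to 1 year and 6.15% to 9.18% at postnatal day 1. The summed level of 7 neutrophil markers was 41.8 CPM in replicate 5 of 1.5 years, 7.95 in replicate 4, and 0.998 to 5.11 in all other fibroblast samples. Of the 6 markers tested, 1 was higher at 1.5 years than at postnatal day 1, where 16.3% of all genes changed. This was S100a9, a calcium-binding protein of neutrophils, at a mean of 8.26 ± 6.55 CPM (SD, n = 2) against 0 in all 3 samples. The granule protein genes Mpo and Ltf were at 0 in 10 of the 12 fibroblast samples each. Macrophage markers, 8 in all, summed to 149.8 to 269.5 CPM at postnatal day 1, 345 to 586 at 4 weeks, 36.8 to 50.9 at 14 weeks, 21.4 to 23.1 at 1 year, and 65.1 to 89.8 at 1.5 years. At 4 weeks 4 of the 8 were higher than at postnatal day 1, where 15.5% of all genes changed (median log2 change 1.51 beside 0.00 for all genes). At 14 weeks 7 of the 8 were lower than at 4 weeks, where 3.87% of all genes changed (median -3.60). The part of neutrophils or macrophages in the level of Mmp9 was not tested.

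In whole hearts, Mmp9 was higher at 1.5 years than at postnatal day 1, though it did not pass the test over all the ages. Its levels were 0.0327, 0.495 and 0.494 CPM at postnatal day 1, 0.924, 0 and 0.961 at 4 weeks, 2.42, 0.441 and 2.09 at 14 weeks, 4.29, 1.69 and 1.56 at 1 year, and 7.19, 5.59 and 4.07 at 1.5 years. The 3 oldest hearts lay above all hearts of the first 3 ages and overlapped those of 1 year. The difference between postnatal day 1 and 1.5 years was 4.04 (SE 1.32, adjusted p = 0.0284), and it was lost without replicate 1 of 1.5 years or without any 1 of the neonatal hearts (adjusted p from 0.0524 to 0.0796). Neutrophil markers summed to 5.88 to 11.0 CPM in neonatal hearts and 4.86 to 9.69 at 1.5 years, and the median log2 change of the 6 tested was -1.15 beside -0.15 for all genes. For macrophage markers, of which 8 of 8 were higher where 31.8% of all genes changed, the sums were 75.4 to 93.9 and 439 to 659 CPM. The part of either cell type in the level of Mmp9 was not tested.

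**Figure D4:**
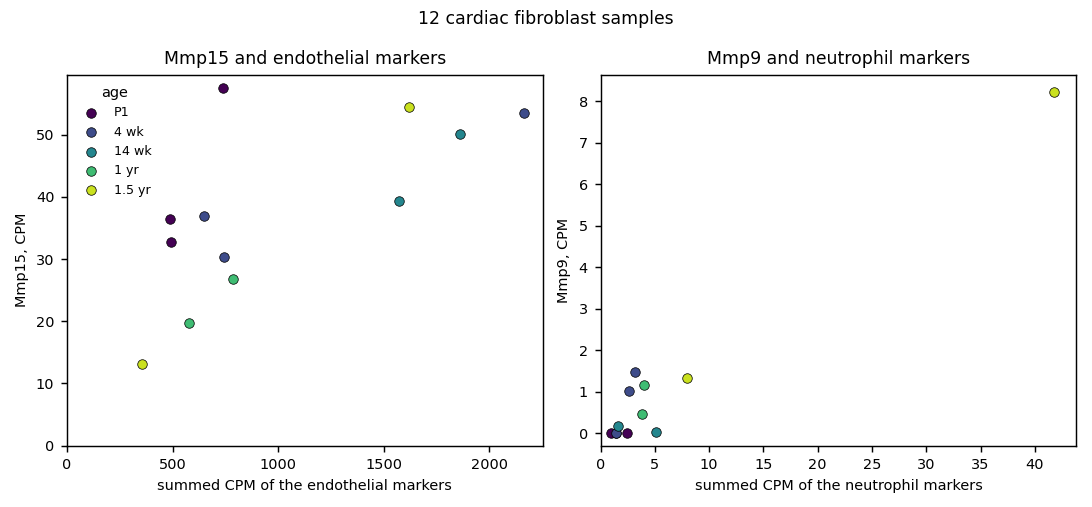
Mmp15 against the summed level of 9 endothelial markers (left) and Mmp9 against that of 7 neutrophil markers (right) in the 12 cardiac fibroblast samples, all in CPM on linear axes, with colors for age. The sample of 1.5 years with the highest neutrophil sum (41.8) also has the highest Mmp9 (8.23), and the 2 samples of 1.5 years lie far apart for Mmp15 (13.1 and 54.5).

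Of the membrane-type genes, Mmp14 (chr14:54431612-54445364, plus strand, 11 exon blocks) fell after birth in both tissues. In fibroblasts it was at 1174, 917 and 1071 CPM at postnatal day 1, 674, 726 and 396 at 4 weeks, 301 and 364 at 14 weeks, 1058 and 826 at 1 year, and 717 and 532 at 1.5 years. The neonatal samples lay above all samples of 4 and 14 weeks, and the samples of 1 year above those of every age but postnatal day 1. The fall to 4 weeks was -0.82 (SE 0.21, adjusted p = 0.0204), the further value at 14 weeks -0.85 (SE 0.24, adjusted p = 0.0813), and the rise to 1 year 1.50 (SE 0.27, adjusted p = 0.0144), which is 2.83-fold. The rise was lost without either sample of 14 weeks or replicate 4 of 1 year (adjusted p from 0.0952 to 0.205), and the first fall without replicate 1 or 3 of postnatal day 1 (0.0599 and 0.0533). The difference between postnatal day 1 and 1.5 years, -0.76 (SE 0.24, adjusted p = 0.0520), lay just outside the threshold and passed with DESeq2 (adjusted p = 0.00428).

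Whole hearts showed the early fall of Mmp14 and a rise at 1.5 years. The levels were 80.5, 98.0 and 80.1 CPM at postnatal day 1, 30.1, 36.2 and 38.4 at 4 weeks, 18.5, 18.6 and 19.8 at 14 weeks, 18.4, 15.8 and 14.2 at 1 year, and 47.8, 33.7 and 33.5 at 1.5 years. The first 3 ages were fully separated from each other, and the hearts of 1.5 years lay above those of 14 weeks and 1 year. Mmp14 fell by 1.30 on the log2 scale to 4 weeks (SE 0.18, adjusted p = 6.51e-05) and by 0.88 to 14 weeks (SE 0.18, adjusted p = 0.0201). It rose from 1 year to 1.5 years by 1.25 (SE 0.18, adjusted p = 0.00274). The fall to 14 weeks was lost without any 1 heart of 14 weeks or replicate 3 of 4 weeks (adjusted p from 0.0859 to 0.108), and the rise at 1.5 years when the 2 ages were fitted alone (0.0803). Fibroblast markers summed to 1899.8 to 2819 CPM in the hearts of 1 year and 2663 to 3105 in those of 1.5 years. Most of these sums was Gsn, with means of 1583 and 1927 CPM. The part of the fibroblast markers in the rise was not tested.

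The late changes of Mmp14 differed between the tissues. From 14 weeks to 1 year the change was 1.50 in fibroblasts and -0.23 in whole hearts, a difference of 1.79 (SE 0.33, adjusted p = 0.00655) in an interaction test over all 27 samples, in which 1.72% of 20650 genes passed. From 1 year to 1.5 years the changes were -0.59 and 1.25, with a difference of -1.91 (SE 0.33, adjusted p = 0.0164), where 0.324% of genes passed. These comparisons, and that from 4 to 14 weeks in which edgeR and DESeq2 called no member (2 had an unadjusted p under 0.05, 0.692% of genes passed), were added after the levels had been seen. The first was lost without fibroblast replicate 4 of 14 weeks (adjusted p = 0.0730) or of 1 year (0.0618), and the second without fibroblast replicate 4 of 1 year (0.105) or replicate 5 of 1.5 years (0.112). Of these steps, the second is one at which sex and age cannot be told apart.

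Mmp15 (chr8:95352268-95375080, plus strand, 10 exon blocks), the other membrane-type gene, was higher in whole hearts than in fibroblasts. Its levels there were 115, 181 and 148 CPM at postnatal day 1, 232, 297 and 195 at 4 weeks, 192, 163 and 191 at 14 weeks, 105, 83.1 and 120.1 at 1 year, and 94.3, 89.2 and 65.4 at 1.5 years. The hearts of 4 weeks lay above those of every other age, though the lowest (195) was close to the highest of 14 weeks (192). Mmp15 rose to 4 weeks by 0.70 (SE 0.20, adjusted p = 0.0231) and ended at 1.5 years with a difference from neonatal hearts of -0.84 (SE 0.20, adjusted p = 0.00486), with every old heart below every neonatal one. The rise was 0.18 with library size scaling (adjusted p = 0.597) and was lost without replicate 2 of 4 weeks or replicate 1 or 3 of postnatal day 1 (adjusted p from 0.0620 to 0.103). The step from 14 weeks to 1 year, -0.83 (SE 0.20, adjusted p = 0.0663), did not pass.

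In fibroblasts no change of Mmp15 was called, and samples of 1 age differed widely. The levels were 57.5, 36.5 and 32.7 CPM at postnatal day 1, 30.3, 36.9 and 53.5 at 4 weeks, 50.2 and 39.4 at 14 weeks, 19.7 and 26.7 at 1 year, and 13.1 and 54.5 at 1.5 years. In the same order of samples, the 9 endothelial markers summed to 737, 486 and 495 CPM, 745, 649.8 and 2164, 1863 and 1574, 578 and 786, and 356 and 1619. The 2 samples of 1.5 years thus differed 4-fold or more in both. Genes of the mitochondrial genome took 2.20% and 7.83% of their counts. The difference between postnatal day 1 and 1.5 years was -0.32 (SE 0.46, adjusted p = 0.732), -1.69 without replicate 5 of 1.5 years, which then passed (adjusted p = 0.0204), and 0.37 without replicate 4. None of the 9 endothelial markers was at 0 in any fibroblast sample, their median log2 change between these ages was 0.89 beside 0.00 for all genes, and their part in the level of Mmp15 was not tested.

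Of the stromelysins, Mmp3 (chr9:7445822-7455975, plus strand, 10 exon blocks) showed the largest fitted log2 change of the 8 genes between postnatal day 1 and 1.5 years in both tissues. In fibroblasts it was at 0, 0.0585 and 0 CPM at postnatal day 1, 24.8, 36.7 and 14.3 at 4 weeks, 86.8 and 72.8 at 14 weeks, 163 and 230.5 at 1 year, and 146 and 201 at 1.5 years. The first 4 ages were fully separated from each other, each above the one before, and the last 2 overlapped. At postnatal day 1 only 4 reads were counted over the 3 samples, so the ratio to later ages is known only roughly, at 1379 for 4 weeks (95% exact interval 538 to 5063) and 9506 for 1.5 years (3712 to 34891), intervals for counting error only. Without neonatal replicate 1 these ratios were 863 and 5949, and without replicate 2, where no neonatal read was left, they became lower limits of 625 and 4302 against a floor of 3 counts per library. The rise to 4 weeks was called (adjusted p = 3.21e-07), as was that from 4 to 14 weeks at 1.66 (SE 0.36, adjusted p = 0.0244). The second was lost without either sample of 14 weeks or replicate 1 of 4 weeks (adjusted p from 0.0828 to 0.194), and the step to 1 year, 1.30 (SE 0.41, adjusted p = 0.149), did not pass.

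Per kilobase of exon, Mmp3 went from the second lowest level of the 8 genes in neonatal fibroblasts to 85.0 ± 17.9 (SD, n = 2) CPM at 1.5 years, where Mmp14 was at 92.5 ± 20.6 (SD, n = 2). Immediate early genes, which include transcription factors such as Fos, Jun, and Atf3 and respond to cell stimulation and tissue digestion, also rose after birth in the sorted fibroblasts. Of 8 such genes, 8 were higher at 4 weeks than at postnatal day 1 in edgeR, where 15.5% of all genes changed. Their summed level was 12503 to 18114 CPM in neonatal fibroblasts and 29154 to 42507 later. In whole hearts the sum was 140.0 to 182 CPM at postnatal day 1, 191 to 279 at 4 weeks, and 222 to 468 at 14 weeks. There it was 157 to 173 CPM at 1 year and 155 to 510.5 at 1.5 years. The part of these genes in the rise of Mmp3 in fibroblasts and in whole hearts was not tested.

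In those hearts Mmp3 was at 0.0218, 0.0206 and 0.0859 CPM at postnatal day 1, 2.04, 3.00 and 0 at 4 weeks, 4.61, 3.67 and 5.47 at 14 weeks, 6.79, 6.18 and 4.65 at 1 year, and 8.62, 8.72 and 5.17 at 1.5 years. A single heart of 4 weeks was at 0, and all hearts of later ages lay above all of postnatal day 1 and 4 weeks. On 12 reads over the 3 neonatal hearts, the ratio to postnatal day 1 was 38.8 at 4 weeks (95% exact interval 21.9 to 75.8) and 176 at 1.5 years (100.2 to 341), both called (adjusted p = 0.00546 and 3.94e-04). Without neonatal replicate 3 they were 77.9 and 353, and the first was 22.5 without replicate 2 of 4 weeks and 59.7 without replicate 3. The log2 change to 1.5 years was larger in fibroblasts than in whole hearts by 5.61 (SE 1.84, adjusted p = 0.0446), where 13.6% of genes passed. That call was lost in 20 of the 27 fits without 1 library (adjusted p from 0.0506 to 0.283), and the fitted size rests on a few neonatal reads.

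Mmp11 (chr10:75923222-75936496, minus strand, 8 exon blocks), the other stromelysin, was highest at 1 year in fibroblasts. There it was at 40.7, 35.6 and 37.2 CPM at postnatal day 1, 32.0, 25.1 and 37.4 at 4 weeks, 24.9 and 32.6 at 14 weeks, 61.0 and 56.8 at 1 year, and 32.2 and 17.8 at 1.5 years. The samples of 1 year stood above all the others. The gene differed among the ages (adjusted p = 0.0278), a call lost without replicate 4 of 14 weeks or either sample of 1 year (adjusted p from 0.0528 to 0.170), while neither the step up to 1 year, 1.03 (SE 0.28, adjusted p = 0.0915), nor the step down, -1.24 (SE 0.28, adjusted p = 0.141), passed. In whole hearts the means of the ages lay between 16.5 ± 1.26 (SD, n = 3) and 25.6 ± 5.95 (SD, n = 3) CPM with no call (adjusted p = 0.416). Exons of Chchd10 on the opposite strand cover 5.58% of the exon length of Mmp11, and whether reads were counted by strand is not stated.

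Mmp19 (chr10:128790910-128800824, plus strand, 9 exon blocks) was higher at the last 2 ages than at birth in fibroblasts. There it was at 46.1, 41.7 and 38.9 CPM at postnatal day 1, 52.4, 50.9 and 48.5 at 4 weeks, 57.4 and 47.8 at 14 weeks, 94.0 and 84.4 at 1 year, and 63.1 and 66.9 at 1.5 years. The samples of 1 year were the highest, and those of 1.5 years lay above all of the first 3 ages. The rise from 14 weeks to 1 year was 0.76 (SE 0.16, adjusted p = 0.0349), or 1.70-fold. It was lost with library size scaling (0.58, adjusted p = 0.109) and without any 1 sample of 14 weeks, 1 year, or 1.5 years (adjusted p from 0.0520 to 0.386). Between postnatal day 1 and 1.5 years, the rise passed except with library size scaling, with the 2 ages fitted alone, and without replicate 5 of 1.5 years (adjusted p = 0.0982).

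Whole hearts had between 1.08 and 6.06 CPM of Mmp19, and no difference among the ages was called (adjusted p = 0.633). The change between postnatal day 1 and 1.5 years there was 0.97 (SE 0.64, adjusted p = 0.261). Exons of Tmem198b on the opposite strand cover 22.3% of the exon length of Mmp19, and those of Gm47093 6.00%, so its counts may hold reads of these genes where strand was not used.

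Mmp23 (chr4:155650655-155653384, minus strand, 5 exon blocks) followed Mmp14 in its early fall. In fibroblasts it was at 171, 135 and 187 CPM at postnatal day 1, 98.7, 88.9 and 66.8 at 4 weeks, 89.8 and 89.9 at 14 weeks, 158 and 124 at 1 year, and 147 and 112 at 1.5 years. The samples of 4 and 14 weeks were lower than all others. It fell by 0.96 to 4 weeks (SE 0.18, adjusted p = 0.00280), and at 1.5 years its difference from postnatal day 1, -0.34 (SE 0.20, adjusted p = 0.282), did not pass. Whole hearts had 26.0, 22.6 and 15.5 CPM at postnatal day 1, 5.85, 8.82 and 9.69 at 4 weeks, 5.31, 4.05 and 5.85 at 14 weeks, 14.2, 14.2 and 11.5 at 1 year, and 13.5, 17.0 and 10.9 at 1.5 years. The hearts of 4 and 14 weeks were again the lowest. Mmp23 fell by 1.39 to 4 weeks (SE 0.28, adjusted p = 0.00219) and rose from 14 weeks to 1 year by 1.39 (SE 0.29, adjusted p = 0.0321), a rise lost without any 1 heart of either age or replicate 2 of postnatal day 1 (adjusted p from 0.0524 to 0.150).

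**Figure D5:**
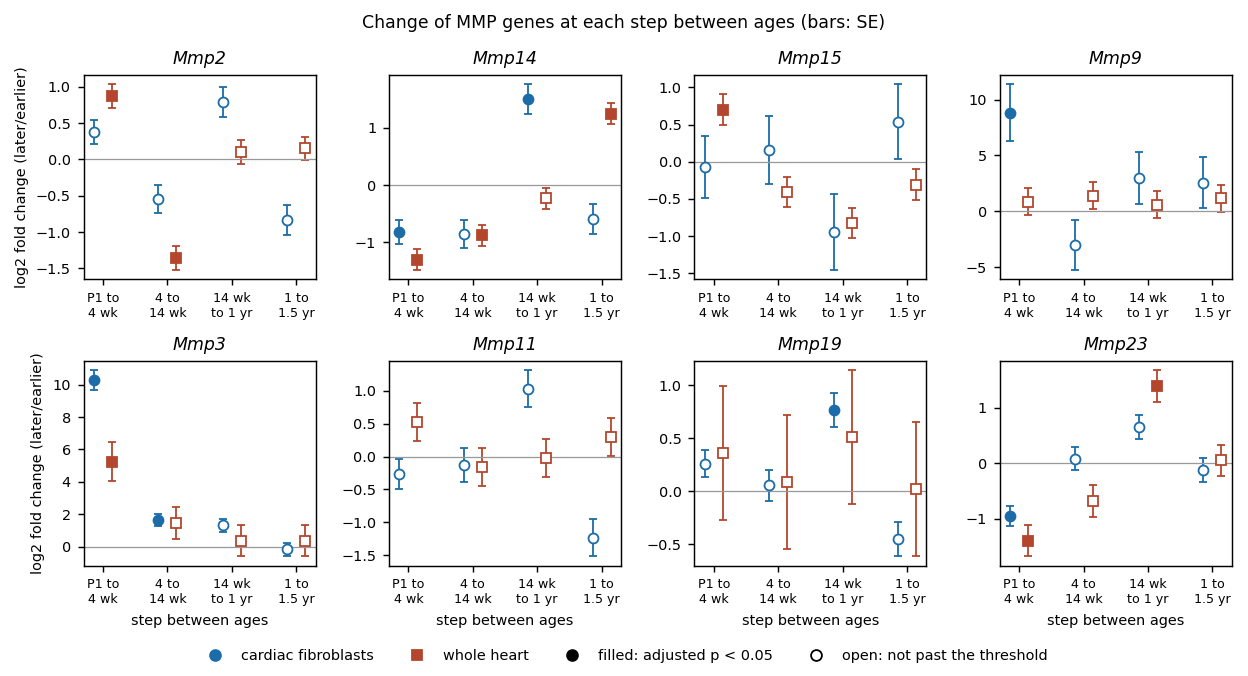
Log2 fold change of each MMP gene at the 4 steps between neighboring ages (y axis, later over earlier, with a separate scale for each gene) in cardiac fibroblasts (circles) and whole hearts (squares). Bars are SEs, and filled symbols mark an adjusted p under 0.05 in edgeR. Mmp14 and Mmp23 fall from postnatal day 1 to 4 weeks in both tissues, and from 14 weeks to 1 year Mmp14 changes by 1.50 in fibroblasts and -0.23 in whole hearts.

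Next, the tissues were compared over all ages in a fit of the 27 samples. All 8 members differed, where 56.8% of 20650 genes did. Mmp2, Mmp3, Mmp11, Mmp14, Mmp19, and Mmp23 were higher in fibroblasts (6 of 8, 27.7% of all genes), and Mmp9 and Mmp15 higher in whole hearts (2 of 8, 29.1%). Mmp2 had a mean of 2011 CPM over the ages in fibroblasts and 101 in whole hearts, a log2 difference of 4.36 (SE 0.09, adjusted p = 3.16e-21) or 20.6-fold. The difference was 4.00 (SE 0.11) for Mmp14, 3.97 (SE 0.20) for Mmp19, and 3.08 (SE 0.12) for Mmp23, so Mmp14 and Mmp19 stood 16.0-fold and 15.7-fold higher in the sorted cells. For comparison, the summed level of 8 fibroblast markers was 24591 to 71064 CPM in fibroblasts and 1057 to 3105 in whole hearts. After postnatal day 1 these sums were mostly Gsn, with means of 34996 to 50225 CPM in fibroblasts and 1552 to 1927 in whole hearts.

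The other differences between the tissues were smaller or less certain. Mmp15 was at 32.1 CPM in fibroblasts and 168 in whole hearts, a difference of -2.32 (SE 0.17, adjusted p = 2.47e-11) or 4.99-fold higher in hearts. Mmp11 differed by 0.36 (SE 0.14, adjusted p = 0.0267), which was lost with DESeq2 (adjusted p = 0.0545) and without fibroblast replicate 6 of 14 weeks, replicate 4 of 1.5 years, or replicate 4 of 1 year (adjusted p from 0.0522 to 0.120). The values for Mmp3 (2.96) and Mmp9 (-2.91) average logs over ages that include libraries at 0, so their fitted size is no measure of fold. Without replicate 2 of the neonatal fibroblasts, the only one with reads of Mmp3, the value for Mmp3 was 2.31 and did not pass. No member differed between the tissues in its change from postnatal day 1 to 4 weeks in edgeR (7.14% of all genes), where 2 members had an unadjusted p under 0.05, DESeq2 called 3 (15.3% of all genes), and Mmp9 came nearest at an adjusted p of 0.0678.

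The members did not share 1 pattern over the samples. Across the 12 fibroblast samples, Pearson's r of log2 CPM was 0.83 between Mmp14 and Mmp23, 0.75 between Mmp3 and Mmp19, and -0.52 between Mmp3 and Mmp14, and across the 15 whole hearts these values were 0.61, 0.26, and -0.73. Samples of 1 age share that age, so these are descriptions. The genes most like Mmp14 among 10233 candidates in fibroblasts were Emilin1 (r = 0.99) and Calm3 (0.98), and those most like Mmp3 were Aox3 (0.99) and Cxcl14 (0.99). Loxl1 (0.93) and Cercam (0.91) were most like Mmp2, and Rasgrp3 (0.94) and Arap3 (0.94) most like Mmp15. In whole hearts other genes led, Tceal8 (0.95) for Mmp14, Cpxm2 (0.96) for Mmp3, Ehd2 (0.89) for Mmp2, and Sipa1l2 (0.96) for Mmp15.

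Genes that act on MMPs were examined as lists. Of 6 MMP inhibitors, 4 were higher in fibroblasts at 1.5 years than at postnatal day 1, where 16.3% of all genes changed, with a median log2 change of 2.03 beside 0.00 for all genes. Timp3, an inhibitor bound to the matrix, had 416 ± 51.4 CPM (SD, n = 3) at postnatal day 1 and 957 ± 58.0 (SD, n = 3) at 4 weeks in fibroblasts, and 1989 ± 268 at 14 weeks (SD, n = 2). Later it was at 729 ± 143 in the samples of 1 year and 1717 ± 201 in those of 1.5 years (SD, n = 2). It thus stood lower at 1 year than at 14 weeks and at 1.5 years. Timp1, a secreted inhibitor, went from 17.4 ± 5.36 CPM (SD, n = 3) at postnatal day 1 to 77.5 ± 25.7 in the oldest samples (SD, n = 2), after 174 ± 52.3 at 1 year, a log2 change of 2.16 over the whole span (SE 0.36, edgeR adjusted p = 0.00110). At 4 weeks 3 of the 6 were already higher than at postnatal day 1 in fibroblasts (15.5% of all genes), and from 14 weeks to 1 year 1 was higher and 1 lower (1.78%). In whole hearts 2 of the 6 inhibitors were higher and 1 lower at 1.5 years than at postnatal day 1, where 31.8% of all genes changed (median -0.42, all genes -0.15). There Timp3 fell from 221 ± 109 to 130.2 ± 22.7 CPM (SD, n = 3), and Timp4 rose from 13.0 ± 9.44 to 29.0 ± 5.42 (SD, n = 3), a log2 change of 1.16 (SE 0.38, edgeR adjusted p = 0.0275).

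Among genes tied to the activation of MMP precursors, Plau, the urokinase-type plasminogen activator, was higher in fibroblasts at 1.5 years than at postnatal day 1 (edgeR adjusted p = 0.0114) but highest at 14 weeks. Its means were 5.99 ± 3.33 CPM at postnatal day 1 and 16.1 ± 5.64 at 4 weeks (SD, n = 3), then 52.5 ± 16.5 at 14 weeks, 40.1 ± 2.90 in samples of 1 year, and 22.2 ± 2.44 in the oldest (SD, n = 2). In whole hearts Bsg, a membrane protein known to induce MMPs, rose by 1.86 on the log2 scale over the same span (SE 0.17, edgeR adjusted p = 6.36e-07). Of 4 other genes of collagen breakdown, 1 was higher in fibroblasts at 1.5 years, where 16.3% of all genes changed, Fap, a collagen-cutting protease of the fibroblast surface, with 15.4 ± 3.26 CPM (SD, n = 3) in neonatal and 38.2 ± 13.9 (SD, n = 2) in the oldest fibroblasts. In whole hearts the median change of these 4 genes was -0.35, beside -0.15 for all genes.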

How the data were processed

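RNA was measured in 12 cardiac fibroblast and 15 whole heart samples. Per the labels and the study's methods, the authors aligned single-end reads with STAR 2.5.3a to mm10 and deposited raw read counts per gene as counted by STAR. Whether counting used strand is not given in the sources used here. The groups, tissue by age, came from the labels, and no pair among the 24 pairs of samples in 1 group held identical values.

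Counts were tested with edgeR 4.0.16 (R 4.3.3) by the quasi-likelihood F test, with TMM scaling, filterByExpr by group, and 1 fit per tissue over its 5 ages, and tissues in 1 fit of 27 samples. P-values were adjusted by Benjamini-Hochberg over all genes tested, with a threshold of 0.05. SEs were derived from F. CPM values are TMM-scaled, and exon lengths and positions are those of GENCODE M21 on GRCm38, the build of mm10. Correlations used log2 CPM with a prior count of 2. Alternatives were DESeq2 1.42.0, 2 other scalings, no filter, at least 10 counts in every sample, the 2 ages alone, a replicate block, and leaving out each sample. Scripts were tested on simulated data with less spread between samples than these data have. That test thus does not cover the spread seen here or genes near 0 counts.

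All 8 members are described. From the other lists, at most the 2 genes per tissue with the largest change between postnatal day 1 and 1.5 years past the threshold are named, and for members with an age mean of at least 1 CPM the 2 genes with the highest correlation among those with a mean of at least 5 CPM. The members and lists were chosen with earlier results of these data known. Depth was at least 46091271 counts, and intervals and floors cover counting error only. The counts of the list of activation genes, and 1 of its genes, are not reported here.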

Additional observations from a re-analysis of the deposited data

Results flagged for a closer look

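The change of Mmp3 between postnatal day 1 and 1.5 years was larger in fibroblasts than in whole hearts, by 5.61 on the log2 scale in the interaction test (adjusted p = 0.0446, 13.6% of genes passed). That call was lost in 20 of the 27 fits without 1 library, and the fitted size rests on a few neonatal reads. Mmp3 was higher at 1.5 years in both fibroblast and all 3 whole heart samples than in any neonatal sample of the same tissue. Mmp14 changed differently in the tissues from 14 weeks to 1 year, by 1.79 (adjusted p = 0.00655, 1.72% of genes passed), as its level rose in fibroblasts while the change in whole hearts was -0.23. From 1 year to 1.5 years the difference was -1.91 (adjusted p = 0.0164, 0.324% of genes passed), with all 3 hearts of 1.5 years above, and both fibroblast samples below, those of 1 year. Each of these calls of Mmp14 was lost in 2 of the 27 fits without 1 library. The tests of Mmp14 were added after its levels had been seen. In the comparisons with 1.5 years sex and age cannot be told apart. No group held 4 samples, so single samples far from their group could not be looked for.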

How the results depend on the processing

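Over 70 gene results, 1388 of 1541 alternative values kept their direction and side of the threshold, 94 lost the call, 58 gained one, and 1 reversed, Mmp15 in fibroblasts between postnatal day 1 and 1.5 years, at 0.37 without replicate 4 of 1.5 years and -1.69 without replicate 5. Counts of members called that moved by more than 1.5 times, or to or from 0, are given next, and the cause was not tested. Percentages give the share of all genes called in the same fit. With DESeq2, fibroblasts had 3 at 14 weeks against 4 weeks (9.75%), 5 at 1 year against 14 weeks (6.49%), and 2 at 1.5 years against 1 year (1.93%). Whole hearts had 2 at 1 year against 14 weeks (7.54%). The differences between the tissues in the change from postnatal day 1 had 3 at 4 weeks (15.3%) and 3 at 1.5 years (21.5%). The difference in the change from 1 year to 1.5 years had 3 (4.56%). With library size only, the count was 1 in fibroblasts at 1 year against 14 weeks (1.68%) and 3 in whole hearts at 4 weeks against postnatal day 1 (26.5%). It was 1 (10.2%) and 2 (18.1%) for the differences in change from postnatal day 1 to 4 weeks and to 1.5 years. That scaling also moved the median of all genes by 0.29 in the comparison of the tissues. In the differences in change the median moved by 0.43 and 0.41 from postnatal day 1 to 4 weeks and to 1.5 years. It moved by 0.30 in the difference from 4 to 14 weeks and by -0.30 in that from 14 weeks to 1 year. In whole hearts the shift was -0.24 from 4 to 14 weeks. In fibroblasts it was -0.18 from 14 weeks to 1 year and -0.15 between postnatal day 1 and 1.5 years. With the 2 ages alone, fibroblasts had 7 at 1 year against 14 weeks (12.2%). Whole hearts had 2 at that step (9.3%), 3 at 4 weeks against postnatal day 1 (19.6%), and 0 at 1.5 years against 1 year (0.228%). Requiring at least 10 counts in every sample left 6 members to test. There were then 2 in fibroblasts at 4 weeks against postnatal day 1 (27.3%). In whole hearts there were 2 at 1 year against 14 weeks (2.96%) and 2 at 1.5 years against postnatal day 1 (48.3%). Between the tissues there were 5 (81.7%), and 2 for the difference in the change from 1 year to 1.5 years (2.15%).

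Leaving out 1 sample gave between 4 and 7 members in fibroblasts and between 5 and 6 in whole hearts over all ages. In fibroblasts the counts were 2 to 4 at 4 weeks against postnatal day 1, 0 to 2 at 14 weeks against 4 weeks, 0 to 2 at 1 year against 14 weeks, 0 to 1 at 1.5 years against 1 year, and 2 to 4 at 1.5 years against postnatal day 1, and in whole hearts they were 4 to 5, 1 to 2, 0 to 2, 1, and 3 to 4 in the same order. Between the tissues 7 to 8 members differed, and differences in change numbered 0 to 1 for postnatal day 1 against 4 weeks, 0 to 3 for postnatal day 1 against 1.5 years, 0 in every fit for 4 against 14 weeks, 0 to 1 for 14 weeks against 1 year, and 0 to 2 for 1 year against 1.5 years. Where a single sample was left in a group, it is assumed to vary like the others.

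Replicate numbers are shared by some groups, but deviations of same-numbered samples correlated between -0.26 and 0.41 among hearts, -0.02 and -0.00 for fibroblasts of postnatal day 1 and 4 weeks, and -0.05 and 0.07 across the tissues. For fibroblasts of 1 and 1.5 years the correlation was 0.24 over 2 pairs, which mirror each other. The numbers were not treated as pairing, since no set of 3 pairs had every correlation over 0.1. With a replicate block, whole hearts had 0 members at 1 year against 14 weeks (0.25% of all genes). In the samples of postnatal day 1 and 4 weeks, the ages at which both tissues share numbers, 5 members differed between the tissues (41.7%). Fibroblasts had 3 at 1.5 years against 1 year (2.78%). The block left the count within 1.5 times in the other 7 comparisons where it could be fitted. Depth limits the values of Mmp3 and Mmp9 where they were near 0 counts, and their ratios and limits without single libraries were added after seeing the data.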

Other observations

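Of 15 other MMP genes looked for, 11 were in the tables and 9 passed the filter in each tissue. In fibroblasts Mmp28 was at 34.5 to 69.5 CPM, Mmp16, a membrane-type gene, at 14.2 to 33.0, and Mmp17, another membrane-type gene, at 3.29 to 19.7, and each was above 0 in all 12 samples. The median change of the 9 genes between postnatal day 1 and 1.5 years was -0.20 in fibroblasts beside 0.00 for all genes. Mmp27 was the only one of them called, where 16.3% of all genes changed, with 0 in all 3 neonatal samples and 1.67 ± 0.68 CPM (SD, n = 2) at 1.5 years. Its means were higher at 14 weeks (3.28) and 1 year (3.11), and 4 of the 12 fibroblast samples were at 0. In whole hearts, where the median was 0.58 beside -0.15, Mmp16 fell from 2.28 ± 1.71 to 0.00549 ± 0.0095 CPM (SD, n = 3) and Mmp28 from 14.0 ± 6.46 to 5.12 ± 3.36 (edgeR adjusted p = 0.0448). Of all genes, 31.8% changed there.

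Among fibroblast markers, Col1a1, a chain of type I collagen, fell between postnatal day 1 and 1.5 years by 2.77 on the log2 scale in fibroblasts and by 2.11 in whole hearts, and Gsn, which encodes an actin-severing protein, rose by 4.20 and 2.78. Each had an adjusted p in edgeR of at most 8.25e-06.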
